A study of Mus musculus with 60 samples.

Results

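Noradrenaline and adrenaline act through adrenergic receptors, and monoamine oxidases break down these transmitters inside cells. The transcripts described here are those of 6 receptor genes (Adra1a, Adra1b, Adra1d, Adra2a, Adra2c and Adrb1) and 2 enzyme genes (Maoa and Maob). They were chosen by name, and all 8 were among the 21999 genes in the count table. The 60 libraries are poly(A) RNA-seq of 3 brain regions (prefrontal cortex, striatum, hippocampus) taken from each of 20 mice. The mice were wild type (WT) or lacked Glo1 (KO), which encodes glyoxalase 1, an enzyme that removes methylglyoxal. From 8 to 12 weeks of age they ate pellets holding 1.4 mg of vitamin B6 per 100 g (the normal diet) or 5 µg per 100 g (the lacking diet), which made 4 groups of 5 mice in each region. The labels give no strain and do not say how the Glo1 allele was made. The vitamin B6 level that the labels record for each mouse was 58.25 to 78.09 ng/µl on the normal diet and 2.25 to 5.63 ng/µl on the lacking diet.

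The receptors fall into classes that couple to different G proteins. The alpha-1 receptors (Adra1a, Adra1b, Adra1d) act through Gq and phospholipase C, the alpha-2 receptors (Adra2a, Adra2c) lower cyclic AMP through Gi and also sit on noradrenergic endings as autoreceptors, and the beta-1 receptor (Adrb1) raises cyclic AMP through Gs. MAO-A and MAO-B, on the outer mitochondrial membrane, oxidise noradrenaline, serotonin and dopamine with differing preference, and MAO-B is known for its presence in astrocytes. The cell bodies that make noradrenaline lie in the brainstem, so these 3 regions hold their endings and the cells that receive the signal.

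The libraries held 7640047 to 13928265 counts and had RNA integrity numbers of 7.6 to 9.3. Glo1 had 299 to 734 counts in the 30 WT libraries and 0 to 10 in the 30 KO libraries, with no overlap. Markers followed the dissection. All 8 medium spiny neuron markers were highest in the striatum, 5 of 6 cortical neuron markers were highest in the prefrontal cortex and 6 of 7 hippocampal neuron markers in the hippocampus. In 7 hippocampal libraries, spread over all 4 groups, Ttr (a choroid plexus transcript) exceeded 100 RPKM (a read count scaled by gene length and library size). The number of members called between regions or within the hippocampus was the same without them. Per the labels, every KO library was in batch 1 and every WT library in batch 2, so genotype and batch cannot be told apart.

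The receptors differed strongly between regions and the oxidases hardly did. Adra1b, Adra1a and Adrb1 were highest in the prefrontal cortex, Adra2c was highest in the striatum, Adra2a and Adra1d were highest in the hippocampus, and Adra1d was almost absent from the striatum. Maoa passed in none of the 3 comparisons and Maob was slightly higher in the prefrontal cortex. In edgeR's quasi-likelihood fit of all libraries, with Benjamini-Hochberg adjustment over all genes, 7 of 8 members passed an adjusted p of 0.05 between the prefrontal cortex and striatum, against 69.9% of 13930 genes tested. Between the prefrontal cortex and hippocampus 7 of 8 passed, against 59.3% of genes, and between the striatum and hippocampus 4 of 8 passed, against 66.4%. Regional differences were common among all genes, so these counts do not set the members apart. The counts against the striatum include Adra1d, which reached this fit only through its prefrontal and hippocampal counts. The median absolute log2 difference of the members was 1.17, 0.55 and 0.30 in the 3 comparisons, beside 0.30, 0.21 and 0.27 over all genes tested. In WT mice on the normal diet alone (5 mice), 6, 3 and 3 of 8 passed in the same order. In whole tissue, fewer cells of a type and less RNA per cell cannot be told apart.

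**Figure D1:**
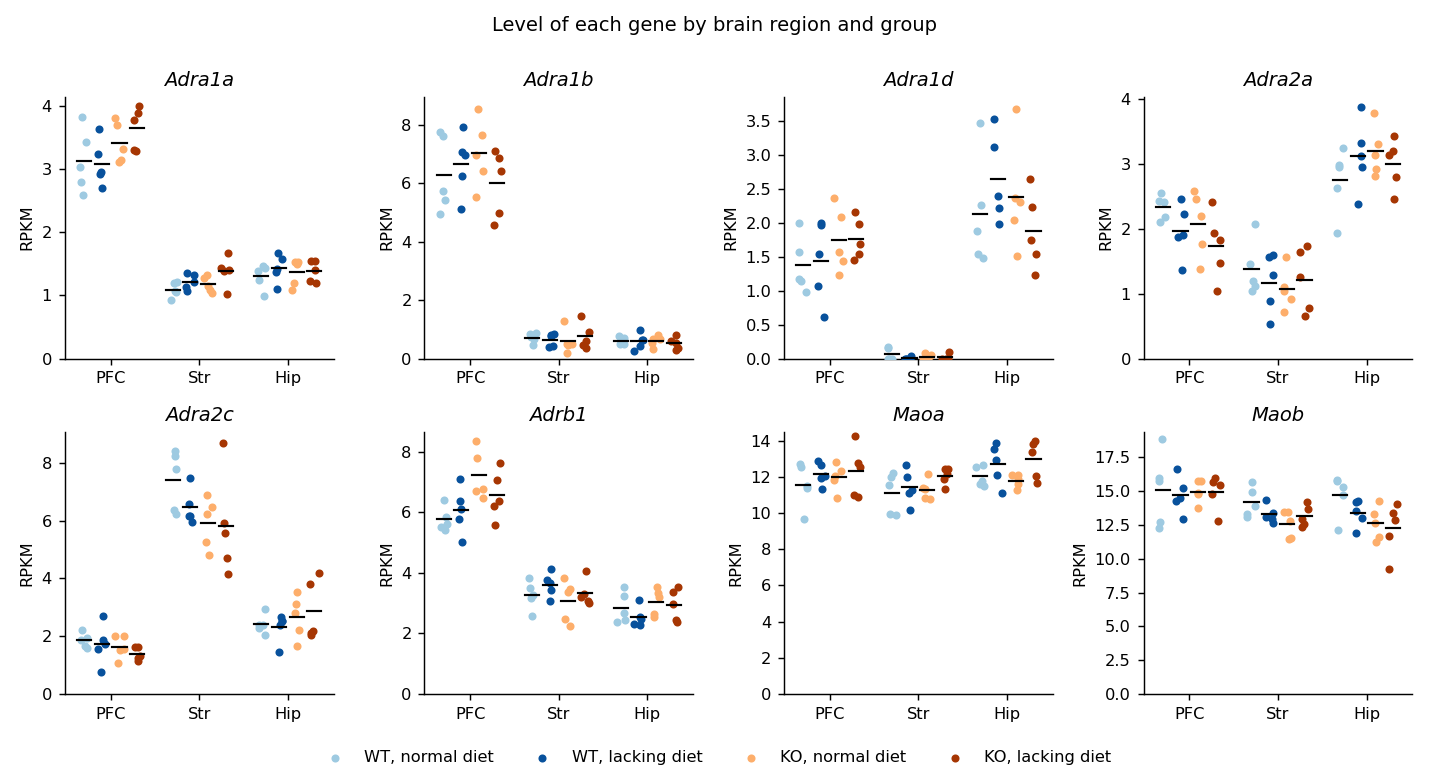
RPKM of each gene (y axis) in every library, by region (x axis: PFC, prefrontal cortex, Str, striatum, Hip, hippocampus) and by group (colour), with 5 mice per group and a black bar at each group mean. The prefrontal libraries lie above all others for Adra1a, Adra1b and Adrb1, and the striatal libraries lie below all others for Adra1d. For Adra2c only the prefrontal and striatal ranges are apart, and for Adra2a the ranges of all regions overlap. No receptor has every region apart from the others. The share of all genes with such gaps was not counted, so the gaps here and below do not set these receptors apart. The 4 groups within a region overlap for most genes, and Maoa and Maob sit at similar heights in all regions.

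Among the alpha-1 receptors, Adra1b had the sharpest preference for the prefrontal cortex. Its RPKM ran from 4.57 through a median of 6.64 to 8.54 in the prefrontal cortex, from 0.202 through 0.632 to 1.46 in the striatum, and from 0.240 through 0.606 to 0.963 in the hippocampus. The lowest prefrontal library was above the highest of the other 2 regions. The log2 difference was 3.23 (SE 0.13, adjusted p 4.96e-31) from the striatum and 3.52 (SE 0.13, adjusted p 5.84e-32) from the hippocampus. The striatum and hippocampus did not differ beyond the threshold (log2 difference 0.29, SE 0.16, adjusted p 0.105), and 11 of 20 mice had the higher value in the striatum.

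Adra1a was also highest in the prefrontal cortex, with a smaller step. It ran from 2.59 through 3.30 to 4.0 RPKM in the prefrontal cortex, from 0.929 through 1.21 to 1.67 in the striatum, and from 0.984 through 1.41 to 1.67 in the hippocampus. Again no prefrontal library overlapped the others, with log2 differences of 1.42 (SE 0.06) from the striatum and 1.33 (SE 0.06) from the hippocampus. The striatum lay below the hippocampus by a log2 difference of -0.09 (SE 0.06, adjusted p 0.200), which did not pass. It passed without TMM scaling factors (-0.17, adjusted p 0.0132) and with limma on log2(RPKM + 0.1) (-0.16, adjusted p 0.018) or log2(RPKM + 1) (-0.10, adjusted p 0.0281).

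Adra1d went another way. In the striatum 14 of 20 libraries had no count and the highest had 4, which made 13 counts in all 20 libraries together. A count of 0 in a striatal library allows 3 counts, or 0.118 to 0.207 RPKM depending on its depth, for counting error only. The prefrontal cortex ran from 0.605 through 1.55 to 2.36 RPKM and the hippocampus from 1.22 through 2.23 to 3.67 RPKM. Both were above every striatal library, and the prefrontal and hippocampal ranges overlapped, with 4 of 20 mice higher in the prefrontal cortex. The prefrontal cortex was lower than the hippocampus by a log2 difference of -0.46 (SE 0.14, adjusted p 0.00404), and in WT mice on the normal diet alone by -0.57 (adjusted p 0.122). The ratio of mean RPKM was 53.5 for prefrontal cortex over striatum and 76.5 for hippocampus over striatum. Both ratios rest on the 13 striatal counts, so their size is uncertain. The transcript overlaps an antisense gene, Gm14285, by 147 exon bases, and whether counting used strand is not given in the sources used here, so its values are uncertain to that extent.

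The alpha-2 receptors were highest in different regions. Adra2c ran from 4.15 through 6.21 to 8.67 RPKM in the striatum, from 0.767 through 1.63 to 2.68 in the prefrontal cortex, and from 1.45 through 2.38 to 4.18 in the hippocampus. Every mouse had more in its striatum than in either other region, although the highest hippocampal library slightly exceeded the lowest striatal one. The log2 difference of the prefrontal cortex from the striatum was -1.98 (SE 0.10, adjusted p 1.46e-25), and that of the striatum from the hippocampus was 1.40 (SE 0.10, adjusted p 1.81e-19). For prefrontal cortex minus hippocampus it was -0.58 (SE 0.11, adjusted p 4.68e-06), and -0.31 (adjusted p 0.271) in WT mice on the normal diet alone.

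Adra2a was highest in the hippocampus, at 1.93 through 3.05 to 3.87 RPKM. It ran from 1.05 through 2.14 to 2.57 in the prefrontal cortex and from 0.529 through 1.16 to 2.08 in the striatum. All 3 ranges overlapped their neighbours, but all 20 mice had more in the hippocampus than in the striatum and 19 of 20 had more in the prefrontal cortex than in the striatum. The log2 difference was -1.25 (SE 0.11, adjusted p 1.52e-15) for striatum minus hippocampus and -0.52 (SE 0.10, adjusted p 1.96e-05) for prefrontal cortex minus hippocampus. In WT mice on the normal diet alone the latter was -0.17 and did not pass (adjusted p 0.555).

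Adrb1 had the smallest ratio between its highest and lowest regional mean RPKM among the receptors, 2.25. It ran from 5.02 through 6.37 to 8.34 RPKM in the prefrontal cortex, from 2.24 through 3.34 to 4.13 in the striatum, and from 2.26 through 2.66 to 3.54 in the hippocampus. The prefrontal libraries lay above all others, and the other 2 regions overlapped. The log2 difference was 0.92 (SE 0.07) from the striatum and 1.23 (SE 0.07) from the hippocampus, and the striatum exceeded the hippocampus by 0.31 (SE 0.07, adjusted p 9.11e-05), a call that was lost in WT mice on the normal diet alone (0.28, adjusted p 0.115).

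**Figure D2:**
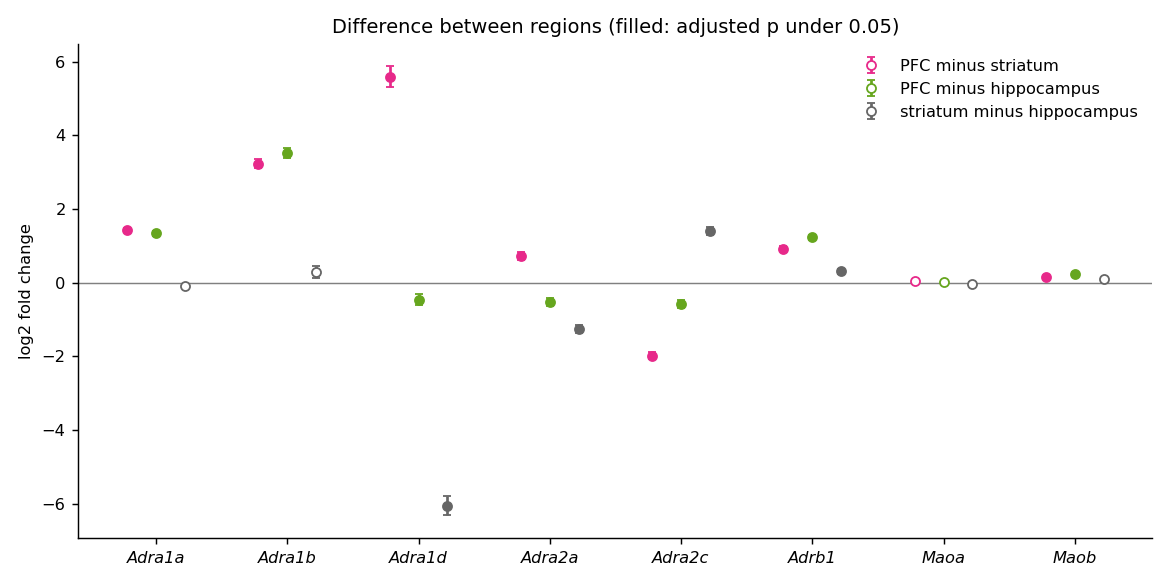
Log2 fold change (y axis) of each gene (x axis) in 3 comparisons of regions averaged over the 4 groups, with bars of 1 SE and filled points where the adjusted p was under 0.05. Adra1d has the longest distances, 5.59 and -6.05 against the striatum, but their size rests on striatal counts near 0. Under the alternative fits they ran from 1.30 to 5.83 for prefrontal cortex minus striatum and from -6.30 to -1.63 for striatum minus hippocampus. Maoa stays at 0.04 or nearer to 0.

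Summed over the 6 receptors, mean RPKM was 21.5 ± 2.11 (SD, n = 20) for the prefrontal cortex, 12.8 ± 1.72 for the striatum and 12.6 ± 1.18 for the hippocampus. RPKM is per length, so that levels of different genes can be set side by side. The order of genes with close values rests on the gene lengths in the deposited RPKM, and other lengths were not tested. The make-up of the sum differed. Adra1b (30.1%) and Adrb1 (29.9%) led in the prefrontal cortex and were level with each other, Adra1b being the higher in 10 of 20 libraries. Adra2c alone made up 49.6% in the striatum, followed by Adrb1 with 26.0%. In the hippocampus Adra2a (23.9%), Adrb1 (22.7%), Adra2c (20.1%) and Adra1d (17.8%) followed each other closely: Adra2a exceeded Adrb1 in 12 of 20 libraries, and Adrb1 exceeded Adra2c, and Adra2c Adra1d, in 13 of 20.

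**Figure D3:**
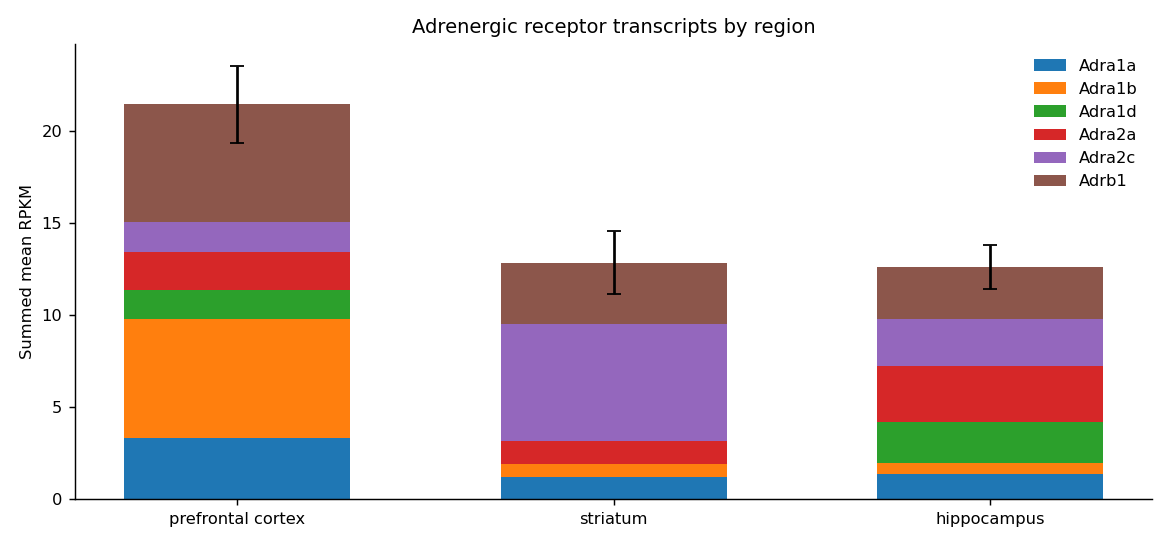
Mean RPKM of the 6 adrenergic receptors stacked by region (20 libraries each), with an SD bar on the sum. The prefrontal stack is the tallest at 21.5, with Adra1b and Adrb1 as its thickest layers, and Adra2c is the thickest layer of the striatal stack.

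The oxidases were the most abundant members in every region. Maoa, which prefers serotonin and noradrenaline, ran from 9.67 through 12.1 to 14.3 RPKM in the prefrontal cortex, from 9.92 through 11.5 to 12.7 in the striatum, and from 11.1 through 12.1 to 14.0 in the hippocampus. These ranges overlapped almost fully, and none of the 3 differences passed (log2 differences 0.04, 0.01 and -0.03, each with SE 0.04, lowest adjusted p 0.392). For striatum minus hippocampus, however, 4 of 20 mice were higher in the striatum, and the difference passed without TMM scaling factors (-0.11, adjusted p 0.00882) and with limma on log2(RPKM + 1) (-0.10, adjusted p 0.00677) or log2(RPKM + 0.1) (-0.11, adjusted p 0.00684). Maob ran from 12.3 through 15.04 to 18.9 RPKM in the prefrontal cortex, from 11.5 through 13.2 to 15.7 in the striatum and from 9.21 through 13.4 to 15.8 in the hippocampus. It was higher in the prefrontal cortex than in the striatum by 0.15 (SE 0.05, adjusted p 0.00355) and than in the hippocampus by 0.23 (SE 0.05, adjusted p 1.18e-05) on the log2 scale. In WT mice on the normal diet alone these were 0.09 (adjusted p 0.474) and 0.10 (adjusted p 0.429), and neither passed. The summed level of the 7 astrocyte markers had another order, with medians of 1050 RPKM (prefrontal cortex), 910 (striatum) and 1190 (hippocampus), and its part in the Maob values was not tested. Slc1a2 was the largest part of this sum, with means of 647, 583 and 651 RPKM in that order of regions. By mean, 6 of the 7 markers were highest in the hippocampus and 1 in the prefrontal cortex (Aldh1l1, with 4.58, 3.93 and 3.88 RPKM). In RPKM, Maob exceeded Maoa in 20 of 20 prefrontal, 18 of 20 striatal and 13 of 20 hippocampal libraries. Maoa, the longer gene in the deposited RPKM (4167 against 2789 bases), had more counts in total in each region.

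The 2 oxidase genes lie end to end on chromosome X (GRCm38, GENCODE M21 annotation), Maoa at 16619698 to 16687818 on the plus strand and Maob at 16709282 to 16817366 on the minus strand, with 21463 bases between their facing ends. Adra2a (54044151 to 54048982) and Adrb1 (56722199 to 56733113) share chromosome 19, and the other receptors lie on chromosomes 14 (Adra1a), 11 (Adra1b), 2 (Adra1d) and 5 (Adra2c). RefSeq promoter windows (GRCm38.p6) were at hand for 5 of the 8 members. Those of a gene with a steep prefrontal preference (Adra1b), a gene with a mild one (Adrb1) and a gene with small regional differences (Maoa) are shown to set their base composition side by side. Each is the 250 bases before a start, read 5′ to 3′ on the gene's strand, with capitals marking a CCAAT box (CCAAT or its reverse complement) or a GC box (GGGCGG or its reverse complement).
Adra1b, chr11:43901238-43901487, minus strand: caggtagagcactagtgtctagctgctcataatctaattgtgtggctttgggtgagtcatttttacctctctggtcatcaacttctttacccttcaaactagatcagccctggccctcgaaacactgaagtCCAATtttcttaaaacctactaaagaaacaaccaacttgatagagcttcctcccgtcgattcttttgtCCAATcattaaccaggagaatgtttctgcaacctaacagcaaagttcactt
Adrb1, chr19:56721867-56722116, plus strand: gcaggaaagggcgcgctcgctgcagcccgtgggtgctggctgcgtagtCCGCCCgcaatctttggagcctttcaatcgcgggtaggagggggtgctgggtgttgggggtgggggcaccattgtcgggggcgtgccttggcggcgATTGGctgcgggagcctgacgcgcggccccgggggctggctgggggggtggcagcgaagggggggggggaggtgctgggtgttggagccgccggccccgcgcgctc
Maoa, chrX:16619448-16619697, plus strand: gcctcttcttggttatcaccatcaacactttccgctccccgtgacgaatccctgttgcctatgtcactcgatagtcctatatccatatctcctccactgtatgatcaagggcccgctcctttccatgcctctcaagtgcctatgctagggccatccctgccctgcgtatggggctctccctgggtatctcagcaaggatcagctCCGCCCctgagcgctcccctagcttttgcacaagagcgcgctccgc
The Adra1b window is poor in G and C (41.6%, with 3 CpG) and holds 2 CCAAT boxes, while a further RefSeq start of the same gene has 72.8% and 22 CpG. The Adrb1 window has 74% and 24 CpG, and the Maoa window 56.8% and 11 CpG. Over 32851 windows of this length the median was 52.4% with 6 CpG. Of these windows 33.8% hold a CCAAT box and 32.7% a GC box, so a match is common and is given as a description only.

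Across the 60 libraries, genes whose log2 CPM (count per library size) followed a member most closely were found by Pearson's r, which here mostly reflects the 3 regions. For Adra1b they were Tmem132d, Cckbr and Ppme1 (r = 0.97 each), for Adra1a Gpr26, Osbpl1a and Herc6 (0.95 each), for Adra1d Plxna1 (0.98), Faah (0.98) and Disp2 (0.97), and for Adra2c Nrsn2 (0.95), Cbr3 (0.94) and Lingo3 (0.94). For Adrb1 they were Nrsn1 (0.94), Slc39a10 and Dpp10 (0.93 each), and for Adra2a Orai3 (0.89), Ehd3 (0.88) and Spns2 (0.87). Over these libraries the oxidases had looser companions: Crbn (0.69), Cetn3 and Eif5 (0.66 each) for Maoa, and Tnfrsf19 (0.63), Tmem14a and Serinc3 (0.61 each) for Maob. With the mean of each of the 12 groups subtracted, the highest r was 0.74 for Maoa and 0.58 for Maob. For the receptors it then ran from 0.64 (Adra1a) to 0.73 (Adra1b). Adra1a and Adra1b had r = 0.91 over the 60 libraries and -0.08 once the mean of each of the 12 groups was subtracted. Adra1b and Adra2a went the other way, with 0.11 before and 0.52 after subtraction. Maoa and Maob had r = 0.07 before and 0.10 after. Each mouse gave 3 of the libraries, so the points are not independent and these values are descriptions.

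Neither the loss of Glo1 nor the lacking diet moved any member past the threshold. Within each region 7 comparisons were fitted (KO against WT on each diet and over both, lacking against normal diet in each genotype and over both, and the interaction), 21 in all with 161 tests of members, since Adra1d had too few striatal counts to be tested. None passed, and the lowest adjusted p was 0.248. At an unadjusted p under 0.05 there were 8 tests, or 4.97%, beside 5.13% of all gene tests. For KO over both diets in the prefrontal cortex these were 2 of 8 members, beside 14.1% of genes. The members' median absolute log2 fold change for that contrast was 0.18 (prefrontal cortex), 0.09 (striatum) and 0.12 (hippocampus), beside 0.08, 0.08 and 0.06 over all genes. For the diet over both genotypes it was 0.05, 0.07 and 0.08, beside 0.05, 0.06 and 0.05. DESeq2 and limma also called no member. The background was low as well. KO against WT over both diets called 0.673% of 13223 genes in the prefrontal cortex, 0.203% of 13311 in the striatum and 0.164% of 13393 in the hippocampus, and the diet over both genotypes called 0 genes in each region. On the normal diet the KO comparison called 0.121%, 0.0601% and 0.0299% of genes in that order of regions, and on the lacking diet 0.234%, 0.128% and 0.0672%. The comparisons of diet within a genotype and the interactions called 0 genes.

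**Figure D4:**
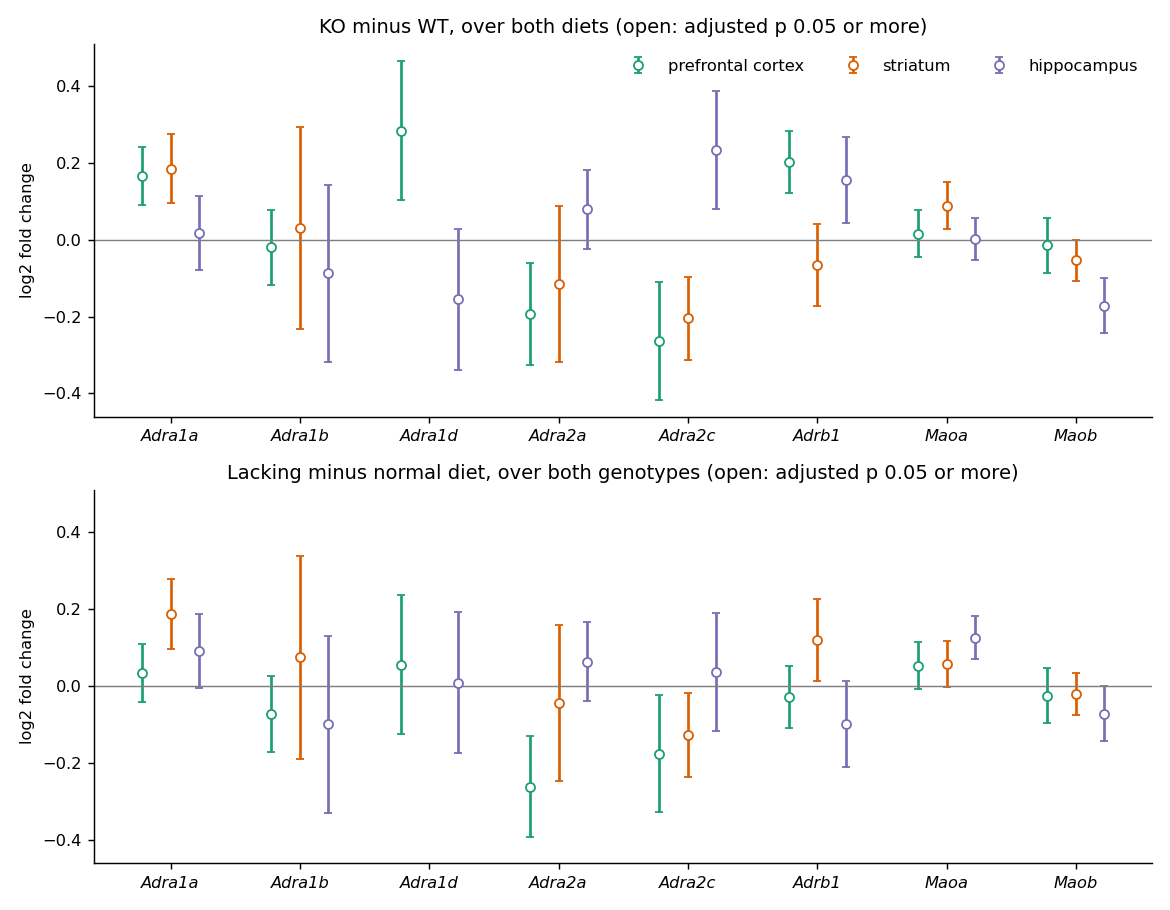
Log2 fold change of each gene (x axis) for KO minus WT over both diets (upper panel) and for lacking minus normal diet over both genotypes (lower panel) in the 3 regions (colour), with bars of 1 SE, and open points because no adjusted p was under 0.05. Points scatter on both sides of 0, between -0.26 and 0.28 in the upper panel, and Adra1d is missing in the striatum.

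The lowest unadjusted p belonged to Adrb1 in the prefrontal cortex. WT mice on the normal diet had 5.42, 5.51, 5.61, 5.85 and 6.42 RPKM, and KO mice on the normal diet had 6.46, 6.71, 6.77, 7.78 and 8.34. These 2 groups did not overlap, a pattern in that direction shown by 0.529% of the genes tested. On the lacking diet the groups overlapped, with 5.02, 5.76, 6.12, 6.36 and 7.10 RPKM in WT and 5.58, 6.21, 6.37, 7.06 and 7.63 in KO. On the log2 scale KO exceeded WT by 0.32 (SE 0.11, edgeR adjusted p 0.852) on the normal diet and by 0.20 (SE 0.08, adjusted p 0.248) over both diets. The summed astrocyte markers in the same region had medians of 1090 and 1100 RPKM in WT and 984 and 975 in KO on the normal and lacking diets, and their part in these values was not tested. Adra1a had a log2 fold change of 0.16 (SE 0.08, adjusted p 0.316) over both diets there.

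In the hippocampus, Maob was at 12.2, 14.7, 15.3, 15.7 and 15.8 RPKM in WT mice on the normal diet and at 11.2, 11.6, 12.6, 13.3 and 14.3 in KO mice on that diet. The groups overlapped, and the log2 fold change of -0.25 (SE 0.10, adjusted p 0.653) did not pass, nor did that of -0.17 (SE 0.07, adjusted p 1.00) over both diets. Maoa in the hippocampus of KO mice was at 11.3, 11.6, 11.9, 12.1 and 12.1 RPKM on the normal diet and at 11.7, 12.0, 13.4, 13.8 and 14.0 on the lacking diet. Its log2 fold change for the diet was 0.18 (SE 0.08, adjusted p 0.719) in KO mice and 0.13 (SE 0.06, adjusted p 0.999) over both genotypes.

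**Figure D5:**
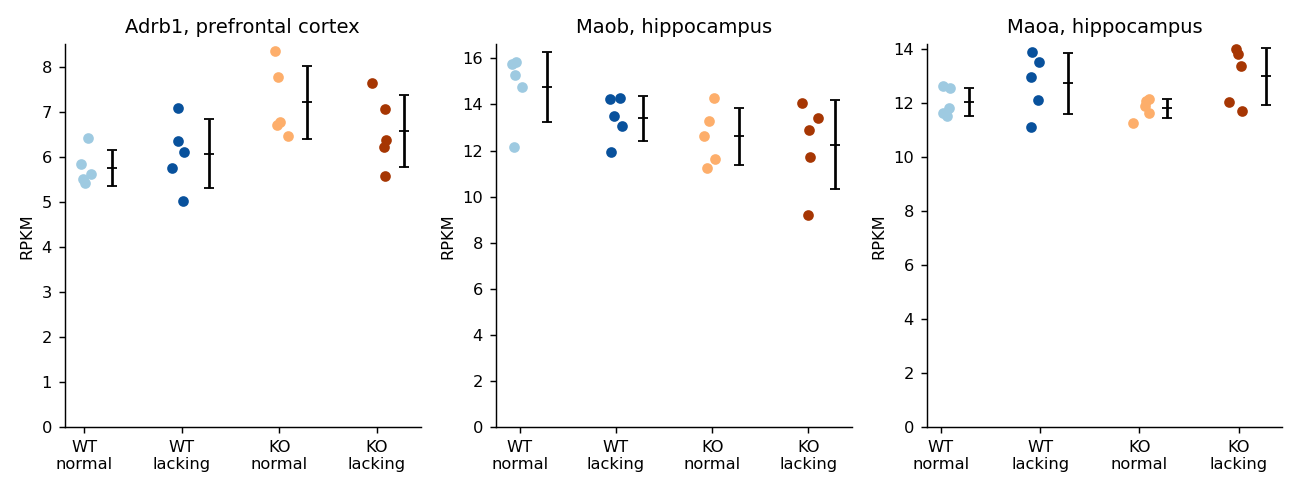
RPKM (y axis, from 0) of Adrb1 in the prefrontal cortex and of Maob and Maoa in the hippocampus, by group (x axis, 5 mice each), with the mean and 1 SD beside the points. These were chosen after their values were seen, for low unadjusted p-values. The groups overlap apart from Adrb1 on the normal diet, where the 5 KO values of 6.46 to 8.34 lie above the 5 WT values of 5.42 to 6.42.

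Adra2c had the largest difference of KO effects between a pair of regions. In the striatum it averaged 7.40 ± 1.04 RPKM (SD, n = 5) in WT and 5.92 ± 0.857 in KO mice on the normal diet, and 6.47 ± 0.610 and 5.80 ± 1.75 on the lacking diet. In the hippocampus the corresponding means were 2.40 ± 0.323, 2.67 ± 0.729, 2.31 ± 0.494 and 2.86 ± 1.04. The KO effect was -0.26 (SE 0.15) in the prefrontal cortex, -0.20 (SE 0.11) in the striatum and 0.23 (SE 0.15) in the hippocampus on the log2 scale. The difference between effects was -0.49 (SE 0.22, adjusted p 0.799) for prefrontal cortex minus hippocampus and -0.43 (SE 0.20, adjusted p 0.735) for striatum minus hippocampus. Neither passed, and none of the 6 such comparisons called a member, against at most 0.00718% of 13930 genes.

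The genes around these receptors were taken from 3 lists. Of 12 genes for the synthesis, packaging and uptake of monoamines, Dbh and Slc6a2, which mark noradrenergic neurons, were near 0 in all regions. Dbh, which makes noradrenaline, averaged 0.0766 RPKM (prefrontal cortex), 0.0124 (striatum) and 0.111 (hippocampus), and Slc6a2, the noradrenaline transporter, had no count in 50 of 60 libraries. Other markers of monoaminergic neurons reached higher means in single regions: Slc18a2, the vesicular transporter, 1.01 RPKM in the hippocampus, and Th and Tph2, which start dopamine and serotonin synthesis, 0.906 and 0.55 in the striatum. The list reached the test for 4 genes (prefrontal cortex), 7 (striatum) and 5 (hippocampus). In the comparisons of genotype and diet 1 of these passed, Slc22a3, the low-affinity transporter OCT3, which takes up noradrenaline outside neurons. In the striatum it was at 2.34, 2.65, 3.12, 3.62 and 3.94 RPKM in WT and at 5.33, 5.68, 6.11, 6.22 and 6.95 in KO mice on the normal diet. On the lacking diet it was at 3.12, 3.27, 3.77, 3.79 and 5.26 in WT and at 6.04, 6.63, 6.76, 6.79 and 8.02 in KO mice, and KO and WT did not overlap on either diet, as for 0.135% and 0.225% of genes tested that were higher in KO. Over both diets the log2 fold change was 0.93 (SE 0.10, adjusted p 9.77e-06). A fit that also held RIN gave 0.85 on the lacking diet, which missed the threshold (adjusted p 0.116). In the other regions Slc22a3 was low. Its means in the prefrontal cortex were 0.47 RPKM in WT and 0.37 in KO mice on the normal diet, and 0.50 and 0.39 on the lacking diet. The hippocampal means were 0.09 and 0.21 on the normal diet, and 0.16 and 0.20 on the lacking diet. As for every KO comparison here, genotype and batch cannot be told apart. Slc22a3 lies on chromosome 17 (12418960 to 12507704) and shares 420 exon bases with Plg on the opposite strand, so that its value carries the same doubt as Adra1d. The position of Slc22a3 relative to Glo1 was not examined.

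Of 9 other enzymes of monoamine breakdown, 7 (prefrontal cortex) or 8 (striatum, hippocampus) reached the test, and none passed for genotype or diet. Akr1a1, an aldehyde reductase, had a mean of 31.7 RPKM over the 60 libraries and Aldh1a1, an aldehyde dehydrogenase, one of 17.8. Aldh1a1 averaged 8.45 ± 1.27 RPKM (SD, n = 20) for the prefrontal cortex, 19.7 ± 3.51 for the striatum and 25.1 ± 2.81 for the hippocampus.

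Of the receptor coupling list all 30 genes reached the test in every region, and none passed for genotype or diet. Their median absolute log2 fold change for KO over both diets was 0.06 (prefrontal cortex), 0.07 (striatum) and 0.03 (hippocampus), beside 0.08, 0.08 and 0.06 over all genes. Between regions, 15 were higher and 9 lower in the prefrontal cortex than in the striatum, 17 higher and 6 lower than in the hippocampus, and 11 higher and 17 lower in the striatum than in the hippocampus, beside the 69.9%, 59.3% and 66.4% of all genes that passed. Rgs4, which shortens Gi and Gq signals, averaged 218 RPKM (prefrontal cortex), 460 (striatum) and 67.4 (hippocampus). Prkar1a and Prkacb, subunits of the kinase that cyclic AMP activates, averaged 192 and 104 RPKM over the 60 libraries.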

How the data were processed

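Poly(A) RNA from 2 µg of total RNA was sequenced as 75-base single reads, per the labels' protocols. STAR 2.7.1a, HTSeq 0.9.1 and build mm10 are named in the submitters' processing notes. The authors deposited raw counts per gene, and RPKM values that equal count / gene length / library total. All 60 columns of each table matched a sample. Genes passing filterByExpr (minimum count 10, minimum total 15) were tested with edgeR 4.0.16 (TMM, quasi-likelihood, Benjamini-Hochberg over all genes, threshold 0.05) in R 4.3.3, within each region (4 groups of 5 mice) and over all 60 libraries (12 groups) for comparisons between regions. DESeq2 1.42.0, limma 3.58.1 on log2(RPKM + 1) and log2(RPKM + 0.1), other filters and scaling, RIN as a covariate, the compared groups alone, each mouse left out and mouse as a block were alternatives. The fits were also run on simulated data, with large changes placed only in genes of higher counts. That run does not measure power for weakly counted members or for small effects. The mouse number pairs the 3 regions of an animal, per the labels: residuals of the same mouse had a mean r of 0.047 (60 pairs), those of different mice -0.011 (240 pairs).

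All members were named, with Glo1 as a label check, for each member the 3 genes most like it, list genes past the threshold for genotype or diet and otherwise up to 3 per list by mean RPKM. One gene of the lists is not reported here. Genes outside this rule were named after their values were seen (Dbh, Slc6a2, Slc18a2, Th, Tph2, Gm14285, Plg, Ttr, Slc1a2, Aldh1l1). The members and lists were chosen with earlier results of these data known. Mice are separate animals. Intervals and limits cover counting error only.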

Additional observations from a re-analysis of the deposited data

Results flagged for a closer look

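Of 96 groups of 5 libraries examined for the 8 genes, 5 held a value far from the other 4, and chance gives about 5 (1 in 20). In the striatum of KO mice on the normal diet, Adra1b was at 1.30 RPKM (48 counts) in mouse 267 against 0.202 to 0.502 in the others. In the striatum of KO mice on the lacking diet, Adrb1 was at 4.07 RPKM (117 counts) in mouse 452 against 3.01 to 3.31. In the hippocampus of WT mice on the lacking diet, Adra2c was at 1.45 RPKM (49 counts) in mouse 226 against 2.38 to 2.67. For Adra1d in the striatum, 1 count (0.042 RPKM) in WT mouse 241 and 2 counts (0.0926 RPKM) in KO mouse 339, both on the lacking diet, stood beside 0 in the other 4 libraries, which is within counting error.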

How the results depend on the processing

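No member was called for genotype, diet or a difference of effects under any alternative run or with any mouse left out, and the lowest adjusted p of a member within a region was 0.133 under the alternatives (Maob, hippocampus, KO against WT on the normal diet) and 0.118 with a mouse left out (Adrb1, prefrontal cortex, KO against WT over both diets). Between regions, the counts of 7, 7 and 4 members held with mouse as a replicate block and with any mouse left out. In WT mice on the normal diet alone, 3 members passed between the prefrontal cortex and hippocampus in place of 7. Adra1d (-0.57, adjusted p 0.122), Adra2a (-0.17, 0.555), Adra2c (-0.31, 0.271) and Maob (0.10, 0.429) kept their direction and missed the threshold. So did Maob against the striatum (0.09, 0.474) and Adrb1 between the striatum and hippocampus (0.28, 0.115). These values rest on 5 mice in place of 20, and all but that of Adra1d were also smaller in size than over all mice. Why the calls were lost was not tested. Without TMM factors, or with limma on log2(RPKM + 1) or log2(RPKM + 0.1), Adra1a and Maoa also passed between the striatum and hippocampus (Maoa -0.11 without TMM factors, adjusted p 0.00882). Slc22a3 in the striatum on the lacking diet fell to an adjusted p of 0.116 with RIN as a covariate. No called direction reversed. Leaving out the 7 hippocampal libraries rich in Ttr was chosen after seeing the data and changed no count.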
